A study of Homo sapiens with 6 samples.

Results

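The RNAs of 7 genes were followed in *PRMT1* knockdown (PRMT1 KD) myeloma cells: the FET proteins *EWSR1* and *TAF15*, the paraspeckle proteins *SFPQ*, *NONO* and *PSPC1*, and the nuclear long non-coding RNAs *NEAT1* and *MALAT1*. They were chosen by name, and each matched 1 of the 58735 genes in the table. RNA was sequenced from MM.1S, an established human multiple myeloma cell line, in 3 control libraries and 3 PRMT1 KD libraries. Cells were transfected with siRNA at 100 nM, a negative control siRNA (si-NC) in the control group and an siRNA against *PRMT1* in the other, and were studied after 72 h. Several *PRMT1* siRNAs were used in the study, and the one behind these libraries is not named in the sources used here. The study describes the replicates of its experiments as dependent biological replicates. Whether these libraries came from separate cultures is not stated. The p-values weigh the group difference against the spread between these libraries, which may not be that between separate cultures.

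PRMT1 is the main enzyme that places asymmetric dimethyl marks on arginine, and its preferred sites are stretches rich in arginine and glycine (RGG/RG). FET proteins carry such stretches and are well-known PRMT1 substrates. They bind RNA and act in transcription and splicing. Paraspeckles are nuclear bodies built on the long form of *NEAT1*, on which SFPQ, NONO and PSPC1, members of a single family of RNA-binding proteins that pair with each other, assemble. *MALAT1* lies next to *NEAT1* and its RNA gathers at nuclear speckles, bodies that store splicing factors. Arginine methylation is a mark on the proteins, and none of the values below measures it.

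In the table on GRCh38, *EWSR1* (ENSG00000182944) lies at chr22:29268009-29300525 on the plus strand and *TAF15* (ENSG00000270647) at chr17:35713791-35864615 on the plus strand. *SFPQ* (ENSG00000116560) lies at chr1:35176378-35193148 on the minus strand, *NONO* (ENSG00000147140) at chrX:71283192-71301168 on the plus strand and *PSPC1* (ENSG00000121390) at chr13:19674752-19783019 on the minus strand. *NEAT1* (ENSG00000245532) lies at chr11:65422774-65445540 and *MALAT1* (ENSG00000251562) at chr11:65497688-65506516, both on the plus strand.

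How these 2 long non-coding RNAs end bears on what a library can capture. Most mRNAs receive a poly(A) tail, whereas *MALAT1* and the long form of *NEAT1* are cut ahead of a small tRNA-like RNA and keep a genome-encoded A-rich end, which folds back on U-rich stretches upstream as a triple helix. The short form of *NEAT1* overlaps the start of the long form and ends at an ordinary poly(A) signal. The sequences below, read 5′ to 3′ from GENCODE 29 transcripts and written with T for U, show these ends. Capitals mark the A-rich end, the stretch that *MALAT1* and *NEAT1* share upstream of it, and the poly(A) signal.
MALAT1 A-rich 3′ end, chr11:65506087-65506116: ttttctagcttAAAAAAAAAAAAAGCAAAA
NEAT1 A-rich 3′ end, chr11:65445511-65445540: ctgtgaaagagtgagcaggAAAAAGCAAAA
MALAT1 U-rich element, chr11:65506055-65506084: gtattgttttCTCAGGTTTTGCTTTTtggc
NEAT1 U-rich element, chr11:65445474-65445503: catggccgcaCTCAGGTTTTGCTTTTcacc
NEAT1 short form poly(A) signal, chr11:65426491-65426520: ctttacagcacaAATAAAgtttgagttcta

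Both A-rich ends close on GCAAAA, after a run of 13 A in *MALAT1* and of 5 A in *NEAT1*. The small RNA gene that follows starts at the next base in each case, at 65506117 for *MALAT1* and 65445541 for *NEAT1*, and both small RNAs were listed at 0 in all 6 libraries. The longest run of letters shared by the 120 bases before these 2 ends was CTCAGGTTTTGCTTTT, 16 bases, searched on the transcript strand only. It was found in 2 of 206694 GENCODE transcripts (0.000968%), 1 of *MALAT1* and 1 of *NEAT1*. The stretch was defined from these 2 RNAs, so it had to be found in both. How rare other strings of 16 bases are was not tested. In the last 120 bases of a transcript it was found in 1 of 200764 (0.000498%), the annotated *MALAT1* transcript running on past its cut. The poly(A) signal begins 3706 bases into the annotated long *NEAT1* transcript, which has 22743 bases. It was the first AATAAA found when that transcript was searched from a chosen point onward, and not from its start. It was not matched to the end of the annotated short transcript. Reads counted per gene do not tell the short form from the long form.

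Values are FPKM, fragments scaled by gene length and library size, as deposited, and reads are those worked back from them. Each library held 14439217 to 16465026 reads on genes. *PRMT1*, the targeted gene, was at 61.7, 62.8 and 58.9 FPKM in the control libraries and at 13.3, 14.0 and 12.5 FPKM in the PRMT1 KD libraries. It fell to 21.7% of its control mean, with a log2 fold change of -2.13 (SE 0.055, adjusted p = 2.77e-05, limma). All 8 plasma cell markers examined had a mean of at least 1 FPKM, from 2.18 to 274.2 FPKM. Of 19 markers of other cell types, 17 had means under 1 FPKM, and the others were *CD3E* at 35.8 FPKM and *PAX5* at 1.07 FPKM.

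None of the 7 genes passed the test for a change in PRMT1 KD cells, and the largest shifts of a mean were to 83.9% of control for *NEAT1* and 112.2% for *MALAT1*. With limma on log2(FPKM + 1), 6 of the 7 passed the filter (mean of at least 1 FPKM) and 0 had an adjusted p under 0.05, where 2.05% of the 13585 genes tested did. An unadjusted p under 0.05 was reached by 0 of the 6, with limma and with its voom variant on reads, against 19.5% of all genes tested with limma. Other settings called 6.82% of all genes tested (voom), 5.63% (voom, at least 10 reads on average), 1.85% (limma, at least 10 reads) and 0.103% (no filter), and 0 of the members with a value under each, which were all 7 except with plain voom, where *NEAT1* was under the filter. *NEAT1* was under the filter and was compared by permuting the library labels exhaustively (two-sided, where 0.1 is the smallest p that 3 libraries against 3 allow). The log2 fold change was above 0 for 5 of the 6 tested, with a median of 0.052, and the median of all genes tested was 0.0095. *SFPQ* and *NONO* were the members with all PRMT1 KD libraries above all control libraries. That is 33.3% of the 6 tested, against 25.9% of all genes tested with groups apart in either direction and 13.6% with the PRMT1 KD group higher. No member had all PRMT1 KD libraries lower, against 12.3% of all genes tested.

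**Figure D1:**
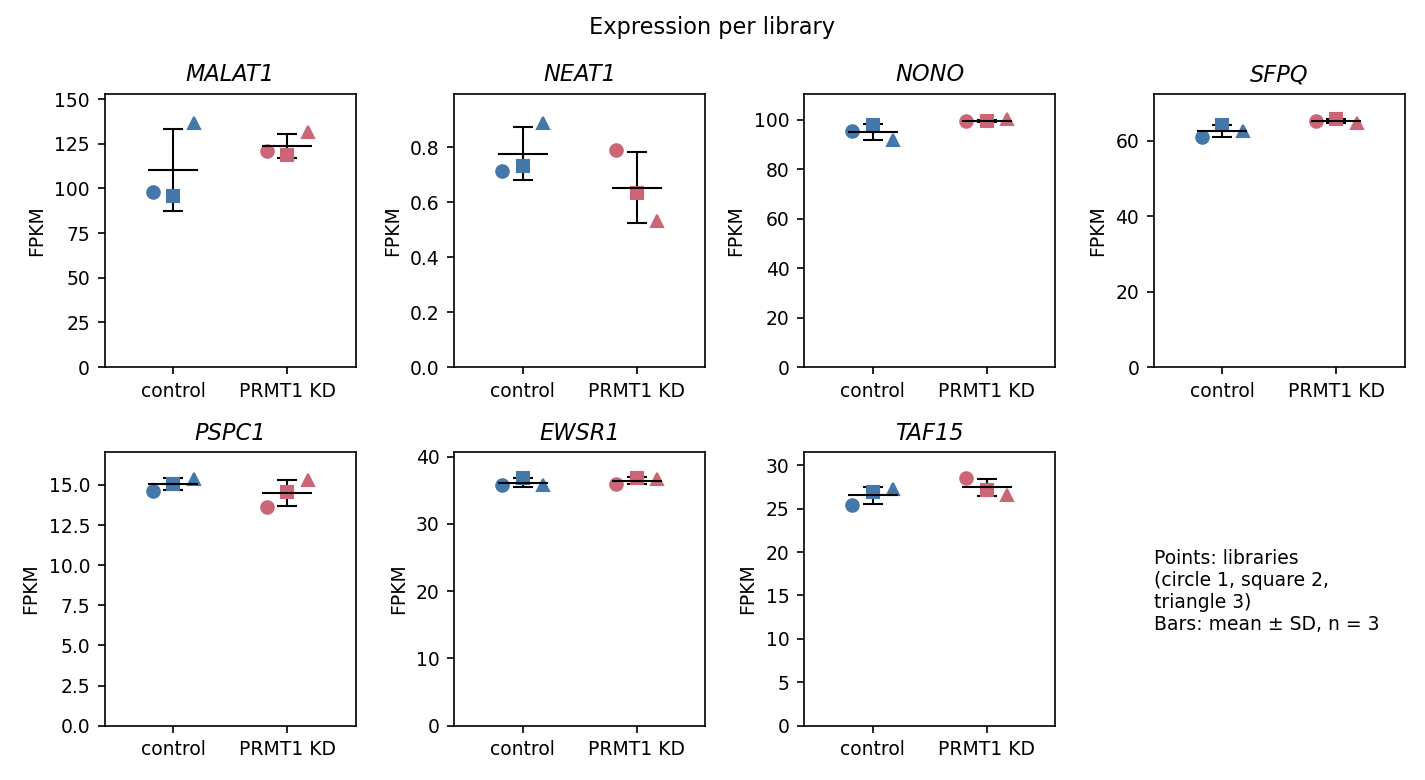
FPKM (y axis, from 0, a separate scale for each gene) in each control and PRMT1 KD library, with points for libraries and bars for the mean ± SD (n = 3). The groups overlap for 5 of the 7 genes, and the third control library has the highest level of *MALAT1* (136.7 FPKM) and of *NEAT1* (0.888 FPKM).

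EWSR1 is an RNA-binding protein of transcription and splicing, known for its fusions in Ewing sarcoma. Its RNA was at 35.8, 36.8 and 35.8 FPKM in the control libraries and at 35.9, 36.8 and 36.6 FPKM in the PRMT1 KD libraries. The groups overlapped almost fully, with means of 36.1 ± 0.60 and 36.4 ± 0.48 FPKM (SD, n = 3 each). The log2 fold change was 0.01 (SE 0.039, adjusted p = 0.913, limma), with a 95% interval from -0.08 to 0.10. This was the narrowest interval of the 6 genes tested, and it reaches from -5.54% to 7.52% on the scale of FPKM + 1. The coefficient of variation, 1.66% among control and 1.32% among PRMT1 KD libraries, was close to the 1.30% that counting reads alone would give at 5472 to 6134 reads per library.

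TAF15 is a FET protein that associates with the general transcription factor TFIID. Its RNA was at 25.45, 26.9 and 27.3 FPKM in the control libraries and at 28.5, 27.2 and 26.6 FPKM in the PRMT1 KD libraries. The first PRMT1 KD library was the highest and the first control library the lowest, and the other 4 libraries interleaved. The log2 fold change was 0.05 (SE 0.049, adjusted p = 0.652, limma), with a 95% interval from -0.07 to 0.16, or -4.78% to 11.98% on the scale of FPKM + 1. The *TAF15* gene as annotated overlaps 11 others, of which *AP2B1*, on the same strand, was at 21.6 to 24.9 FPKM and the antisense *AC015849.3* at 5.59 to 8.19 FPKM. *EWSR1* overlaps *RHBDD3* on the opposite strand, at 11.5 to 13.5 FPKM. Whether counting used the strand is not given in the sources used here, so reads of overlapping exons cannot be assigned with certainty.

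SFPQ and NONO pair with each other and are both needed for paraspeckles to form. *SFPQ* was at 60.9, 64.25 and 62.5 FPKM in the control libraries and at 65.3, 65.6 and 64.6 FPKM in the PRMT1 KD libraries. The lowest PRMT1 KD library lay just above the highest control library, by less than the SD of the controls (means of 62.6 ± 1.67 and 65.2 ± 0.52 FPKM, SD, n = 3 each). For *SFPQ* the log2 fold change was 0.06 (SE 0.040, adjusted p = 0.467, limma), with a 95% interval from -0.04 to 0.15, or -2.42% to 11.1% on the scale of FPKM + 1.

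*NONO* was at 95.45, 98.0 and 91.6 FPKM in the control libraries and at 99.4, 99.4 and 100.1 FPKM in the PRMT1 KD libraries. All PRMT1 KD libraries were higher, and their mean was 104.8% of the control mean (95.02 ± 3.24 against 99.6 ± 0.42 FPKM, SD, n = 3 each). For *NONO* the log2 fold change was 0.07 (SE 0.041, adjusted p = 0.417, limma), with a 95% interval from -0.03 to 0.16, whose upper end is 12.1% on the scale of FPKM + 1. For *SFPQ* and *NONO* the exact two-sided permutation p was 0.1, the smallest it can be. The PRMT1 KD libraries varied less than counting alone would give, with coefficients of variation of 0.80% for *SFPQ* and 0.42% for *NONO* against 1.15% and 1.11%.

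PSPC1, paraspeckle component 1, is the least abundant of the family here. Its RNA was at 14.65, 15.1 and 15.4 FPKM in the control libraries and at 13.65, 14.6 and 15.3 FPKM in the PRMT1 KD libraries. The first PRMT1 KD library was the lowest, and the groups overlapped. Its log2 fold change was -0.05 (SE 0.055, adjusted p = 0.665, limma), with a 95% interval from -0.18 to 0.08, or -11.8% to 5.79% on the scale of FPKM + 1. The antisense *PSPC1-AS2* was at 1.32 to 3.67 FPKM. The pseudogenes *NONOP2* (0.587 to 1.13 FPKM) and *PSPC1P1* (0.545 to 1.09 FPKM), which could share reads with their parents, were low.

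NEAT1, the scaffold of paraspeckles, was at 0.7135, 0.733 and 0.888 FPKM in the control libraries and at 0.790, 0.635 and 0.5335 FPKM in the PRMT1 KD libraries. These values rest on 269, 269 and 334 reads in control and 297, 208 and 185 reads in PRMT1 KD libraries. The lowest 2 libraries were PRMT1 KD libraries, but the first PRMT1 KD library was above 2 of the 3 controls. The means were 0.778 ± 0.096 and 0.653 ± 0.13 FPKM (SD, n = 3 each), and PRMT1 KD was at 83.9% of control (exact two-sided permutation p = 0.3). On log2(FPKM + 1) the difference was -0.11, a scale that understates the change of a gene at this level. With voom on reads and a filter of at least 10 reads, a combination chosen after seeing the data, the log2 fold change was -0.26 (SE 0.14, adjusted p = 0.290, limma), with a 95% interval from -0.54 to 0.03.

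The level of *NEAT1* depends on which form the reads belong to. The gene length behind the FPKM values is 22767 bases, and the annotated short transcript has 3441 bases. If every read came from the short transcript, the libraries would be at 3.53 to 5.87 FPKM, with means of 5.15 in control and 4.32 in PRMT1 KD. Of 8 RNAs chosen as lacking a poly(A) tail, 3 had a mean of at least 1 FPKM. The highest was the histone RNA *HIST1H2AC* at 24.1 FPKM, while the histone RNA *HIST1H4C* was at 0.097 FPKM. *RN7SK*, *RMRP*, *RPPH1* and *TERC* were listed at 0 in all libraries. Whether the histone RNAs carried a tail in these cells was not measured. Capture of poly(A) RNA on oligo(dT) beads is described for the m6A libraries of the study, and how RNA was selected for the libraries used here is not stated.

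MALAT1 RNA was at 98.2, 95.7 and 136.7 FPKM in the control libraries and at 120.9, 118.7 and 131.5 FPKM in the PRMT1 KD libraries. All 3 PRMT1 KD libraries lay between the second highest and the highest control library. The means were 110.2 ± 23.0 and 123.7 ± 6.87 FPKM (SD, n = 3 each), and the log2 fold change was 0.18 (SE 0.13, adjusted p = 0.496, limma), with a 95% interval from -0.13 to 0.50, or -8.78% to 41.2% on the scale of FPKM + 1. The controls varied by 20.9%, where counting at 13630 to 19951 reads would give 0.78%, so the spread between libraries and not depth set the width of this interval. Without the third control library the log2 fold change was 0.35 (adjusted p = 0.0697, limma), still short of the threshold, with a 95% interval from 0.21 to 0.49. That library also had the most *NEAT1* and the most genes above 0, 27266 against 25943 to 26609 in the others, and their part in the result was not tested.

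**Figure D2:**
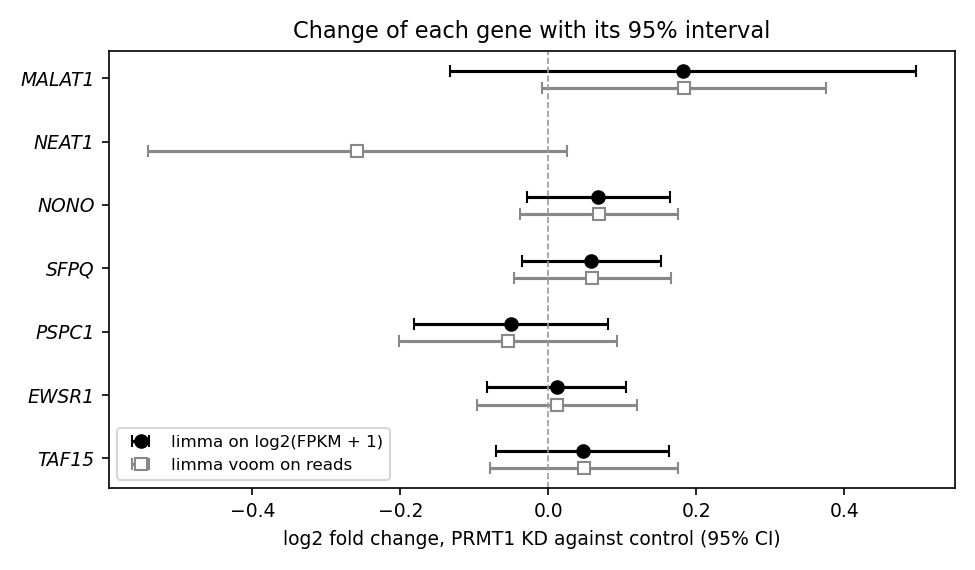
Log2 fold change of PRMT1 KD against control (x axis) with its 95% interval for each gene, from limma on log2(FPKM + 1) (filled circles) and from voom on reads with at least 10 reads on average (open squares). Every interval includes 0, and those of *MALAT1* and *NEAT1* are the widest. *NEAT1* has no filled circle because it was under the filter.

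Because FPKM is per length, levels of different genes can be set side by side within these libraries. By control mean the order was *MALAT1*, *NONO*, *SFPQ*, *EWSR1*, *TAF15*, *PSPC1* and *NEAT1*. The only neighbours in this order whose control libraries overlapped were *MALAT1* (95.7 to 136.7 FPKM) and *NONO* (91.6 to 98.0 FPKM), and in PRMT1 KD libraries no neighbours overlapped. *MALAT1* was 130.7 to 246.5 times *NEAT1* across the libraries. The order rests on the length given to each gene, which is the union of its exons. As an alternative, that length was replaced by the longest transcript annotated as protein-coding or, for *NEAT1* and *MALAT1*, as long intergenic non-coding. Every read of the gene was given to this transcript, which overstates genes with reads outside it. The control means would then be 174.5 for *NONO*, 140.6 for *EWSR1*, 124.0 for *SFPQ*, 111.8 for *MALAT1*, 71.6 for *TAF15*, 30.1 for *PSPC1* and 0.779 FPKM for *NEAT1*. With these lengths *EWSR1* would pass *SFPQ* and *MALAT1*.

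Ratios between members within a library remove what scales both genes alike. The ratio of *PSPC1* to *NONO* was 0.1535, 0.1539 and 0.168 in control and 0.1374, 0.1469 and 0.1526 in PRMT1 KD libraries. All PRMT1 KD libraries were lower, and the log2 ratio went from -2.66 ± 0.074 to -2.78 ± 0.077 (SD, n = 3 each), a difference of -0.12 (exact two-sided permutation p = 0.1, 0.4 after Benjamini-Hochberg adjustment over 4 ratios). It was -0.079 without the third control library and -0.081 without the first PRMT1 KD library. The ratio of *NEAT1* to *MALAT1* was 0.00726, 0.00765 and 0.00649 in control and 0.00654, 0.00535 and 0.00406 in PRMT1 KD libraries. The groups overlapped by the first PRMT1 KD library and the third control, and the log2 difference was -0.45 (exact two-sided permutation p = 0.2, adjusted 0.4), with SDs of 0.12 in control and 0.35 in PRMT1 KD. Without the third PRMT1 KD library this difference was -0.27, and with any other library left out it was between -0.61 and -0.40.

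The ratio of *SFPQ* to *NONO* stayed within 0.638 to 0.683 in control and 0.646 to 0.661 in PRMT1 KD libraries, a log2 difference of -0.0093 (exact two-sided permutation p = 0.9, adjusted 0.9). For *EWSR1* to *TAF15*, the log2 difference was -0.037 (exact two-sided permutation p = 0.6, adjusted 0.8). Leaving out a library moved these differences across 0, from -0.032 to 0.017 for the first and from -0.064 to 0.0020 for the second. None of the 4 ratios differed between the groups by the test used, which could not reach an adjusted p under 0.05 with 3 libraries a group.

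**Figure D3:**
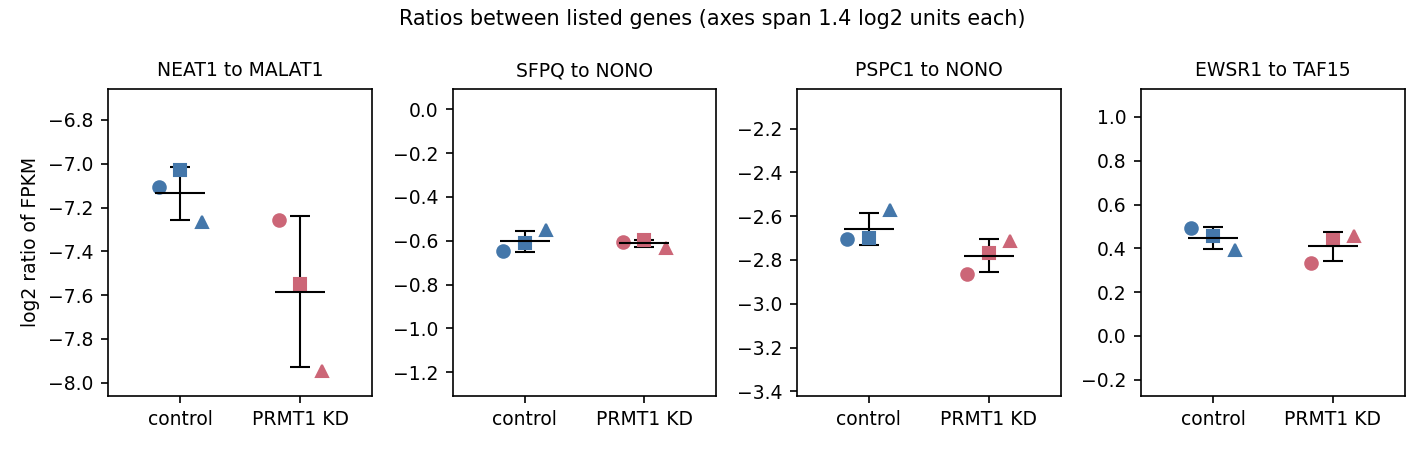
Log2 ratio of the FPKM of 2 genes (y axis, each panel spanning the same number of log2 units and not starting at 0) in control and PRMT1 KD libraries, with points for libraries and bars for the mean ± SD (n = 3). The ratio of *PSPC1* to *NONO* is lower in all PRMT1 KD libraries, the ratio of *NEAT1* to *MALAT1* has the widest spread, and the other 2 ratios overlap.

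The genes whose pattern over the 6 libraries was most like each member were found by the smallest root mean square difference of log2(FPKM + 1), each gene centred on its mean. They were *TERF2IP* for *EWSR1* (0.0087), *ANKH* for *TAF15* (0.014), *EPB41L4A* for *SFPQ* (0.0093), *CS* for *NONO* (0.0095), *SELENOF* for *PSPC1* (0.011), *ZDHHC11* for *NEAT1* (0.031) and *LRCH2* for *MALAT1* (0.024). The members were left out of this search, so none could be the match of another. With 6 libraries and 13585 genes, close matches are a description of these libraries.

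Genes that work with the members were examined in lists, and each list was described by its counts. Of 28 other paraspeckle proteins, all were tested and 1 was called, *HNRNPA1*, which was higher (1.07% of all genes tested were called higher). The log2 fold change was above 0 for 21 of the 28, with a median of 0.06, while 52.6% of all genes tested were above 0. Median scaling left 17 of the 28 above 0, with a median of 0.04, and without the third control library the median was also 0.04, with 20 above 0. HNRNPA1 is an RNA-binding protein that regulates splicing and carries an RGG stretch. It was at 253.9, 261.8 and 261.7 FPKM in the control libraries and at 309.7, 319.2 and 328.5 FPKM in the PRMT1 KD libraries, and the groups were well apart. Its log2 fold change was 0.30 (SE 0.041, adjusted p = 0.0291, limma), and the call was lost with each of the 6 libraries left out in turn (adjusted p from 0.0587 to 0.146). A total of 35 *HNRNPA1* pseudogenes were above 0 and summed to a mean of 23.4 FPKM in control and 28.2 FPKM in PRMT1 KD libraries, so reads may be split between near-identical copies and the value is uncertain.

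The same gene was the 1 called of 18 other RGG/RG proteins, the list that shares 5 genes with the paraspeckle list. Here 13 of 18 were above 0, with a median of 0.05, and with median scaling 10 of 18, with a median of 0.03. An unadjusted p under 0.05 with limma was reached by 6 of the 18. All PRMT1 KD libraries were higher for 7 and lower for 2. Of all genes tested, 19.5% had an unadjusted p under 0.05, and 13.6% and 12.3% had the groups apart in these directions. Of 18 nuclear speckle proteins, 1 was called, *SRSF2*, a splicing factor of the SR family, and 17 were above 0, with a median of 0.07. With median scaling 16 were above 0, with a median of 0.05. An unadjusted p under 0.05 with limma was reached by 3 of the 18. Of all genes tested, 1.07% were called higher and 52.6% had a log2 fold change above 0. *SRSF2* was at 86.8, 91.2 and 87.9 FPKM in the control libraries and at 108.7, 115.8 and 120.8 FPKM in the PRMT1 KD libraries, all higher. Its log2 fold change was 0.37 (SE 0.051, adjusted p = 0.0291, limma). The call held without the first PRMT1 KD library (adjusted p = 0.0497, limma) and was lost without any of the others (0.0633 to 0.143). It overlaps *MFSD11* on the opposite strand, whose means were 7.48 and 8.18 FPKM. The most abundant of this list was *SRRM2*, a scaffold of nuclear speckles, at 113.1 ± 4.65 FPKM in control and 122.9 ± 7.97 FPKM in PRMT1 KD (SD, n = 3 each). Its log2 fold change was 0.12 (adjusted p = 0.336, limma).

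Some factors of RNA 3′ end processing decide between the short and long forms of *NEAT1*, which these values cannot separate. The list examined was of factors acting on *NEAT1* or *MALAT1*, so its counts do not describe that choice alone. Of its 18 factors, 0 were called by limma and 0 with voom, against 2.05% and 6.82% of all genes tested. An unadjusted p under 0.05 with limma was reached by 1, against 19.5% of all genes tested. It was *CPSF6*, with a log2 fold change of 0.20 (adjusted p = 0.201, limma). All PRMT1 KD libraries were higher for 4 and lower for 0, against 13.6% and 12.3% of all genes tested. The median log2 fold change was 0.05, with 14 above 0, and with median scaling 0.03, with 12 above 0. The most abundant, *CPSF1*, a subunit of the complex that recognises the poly(A) signal, was at 54.4 ± 3.75 FPKM in control and 50.2 ± 4.86 FPKM in PRMT1 KD (SD, n = 3 each, adjusted p = 0.485, limma).

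Of 17 other long non-coding RNAs, 9 were tested, 0 were called by limma or by voom, and 4 had an unadjusted p under 0.05 with limma. Of all genes tested, 2.05% were called by limma, 6.82% by voom, and 19.5% had an unadjusted p under 0.05. The median was 0.06, with 6 of the 9 above 0, and it moved to 0.10 without the first and 0.03 without the third PRMT1 KD library. *NORAD*, a cytoplasmic RNA that binds Pumilio proteins and the most abundant of the list, was at 73.7, 72.7 and 75.5 FPKM in the control libraries and at 81.6, 78.7 and 85.4 FPKM in the PRMT1 KD libraries. All PRMT1 KD libraries were higher, by a log2 fold change of 0.14 that did not pass the threshold (adjusted p = 0.147, limma).

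**Figure D4:**
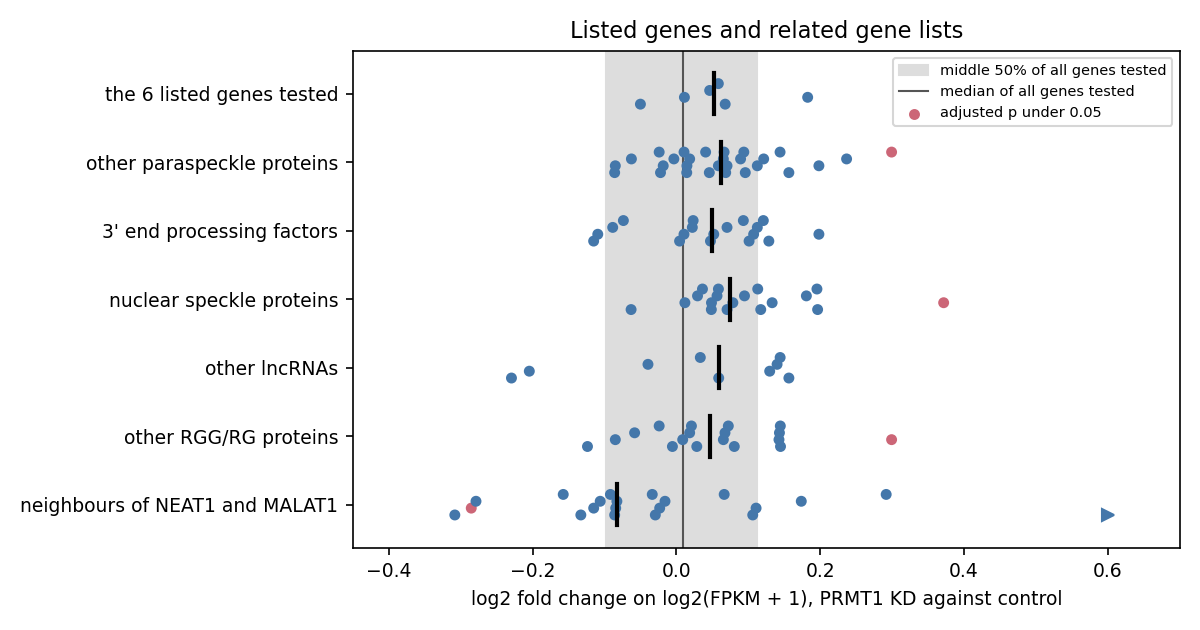
Log2 fold change on log2(FPKM + 1) (x axis) of the 6 members tested and of each related list (y axis), with a point for each gene, a black bar for each median and the grey band for the middle 50% of all genes tested. The medians lie between 0.05 and 0.07 except that of the neighbours, at -0.08. The triangle at the right edge is *MIR4489*, a neighbour that lies beyond the axis at 1.02 with a mean of 0.65 FPKM in control and 2.69 FPKM in PRMT1 KD. It was at 0, 0 and 1.95 FPKM in the control libraries and at 4.88, 0 and 3.18 FPKM in the PRMT1 KD libraries. It is counted among the neighbours above 0.

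*NEAT1* and *MALAT1* lie next to each other on chromosome 11, and 44 other genes in the table lie within 250 kb of either. Of these, 21 were tested, 6 had a log2 fold change above 0 and 15 below, and the median was -0.08. The median depended on single libraries: it was -0.016 without the third PRMT1 KD library, with 9 above 0, -0.045 without the second control library and -0.051 without the first. The 1 called, *AP000769.1*, was lower (0.986% of all genes tested were called lower). It is a transcribed pseudogene of *FAU*, which encodes a ribosomal protein, and it starts 32.5 kb after the *NEAT1* start, between the 2 long non-coding RNAs. It was at 32.9, 34.4 and 35.7 FPKM in the control libraries and at 26.6, 28.8 and 28.6 FPKM in the PRMT1 KD libraries, and the groups were apart. Its log2 fold change was -0.29 (SE 0.053, adjusted p = 0.0491, limma). *FAU* itself had means of 188.5 FPKM in control and 180.5 FPKM in PRMT1 KD, with a log2 fold change of -0.06 (SE 0.051, adjusted p = 0.553, limma). Reads may be shared between the pseudogene and its parent. The call was at the edge of the threshold and was lost with each library left out in turn (adjusted p from 0.0917 to 0.167, limma).

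**Figure D5:**
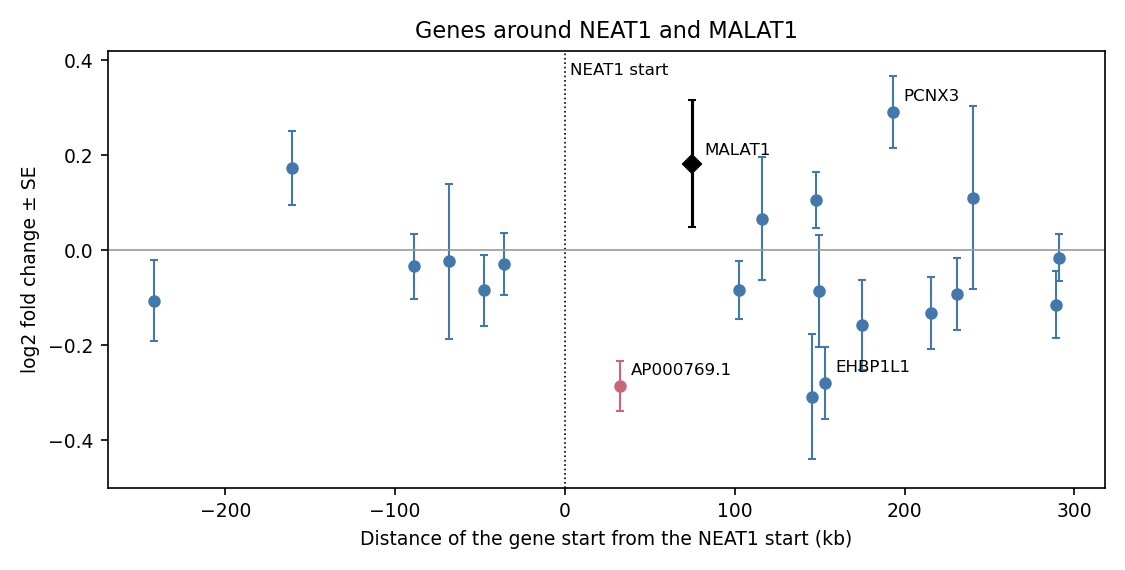
Log2 fold change ± SE (y axis) of the tested genes within 250 kb of *NEAT1* or *MALAT1* against the distance of each gene's start from the *NEAT1* start in kb (x axis), without *MIR4489*, which lies above the axis. *AP000769.1*, in red, is the gene called, *MALAT1* is the black diamond, and *EHBP1L1* (-0.28) and *PCNX3* (0.29), further along, lie below and above 0.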

How the data were processed

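RNA was sequenced from 3 control and 3 PRMT1 KD libraries of MM.1S cells. The authors deposited FPKM values per gene, with each gene's length, and the submitters' processing notes name featureCounts 1.5.0-p3 and hg38. The aligner and the strand setting are not given in the sources used here. Deposited FPKM values multiplied by gene length fell on multiples of 1 unit per library (100% of values above 0, tolerance 0.01 of a read), and that unit gave the reads. They already include a scaling between libraries by median-of-ratios size factors.

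Groups came from the labels. Log2(FPKM + 1) was tested with limma 3.58.1 (R 4.3.3; empirical Bayes with trend, two-sided, Benjamini-Hochberg over genes with a mean of at least 1 FPKM), and ratios with exact permutation tests. The fit was run on simulated data with changes of 1 on the log2 scale and the same dispersion for every gene. Those changes were larger than that of any member, so the run does not bear on small changes. Percentages given from intervals are those of FPKM + 1. Counting error was taken as Poisson and covers counting only. The members and lists were chosen with earlier results of these data known. Named are the 7 members, *PRMT1*, called genes of each list (at most 4) and its most abundant gene, the closest pattern for each member, and overlapping genes and pseudogenes. *FAU*, *MFSD11*, *CPSF6*, *MIR4489*, *EHBP1L1*, *PCNX3*, *CD3E*, *PAX5* and the RNAs chosen as lacking a poly(A) tail were named outside this rule. Alternatives covered the pseudocount, filter, scaling, prior, voom on reads, replicate block and each library left out.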

Additional observations from a re-analysis of the deposited data

How the results depend on the processing

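None of the 6 members over the filter was called under any of the 17 alternatives, and *NEAT1* was not called in the 3 that tested it (no filter, and at least 10 reads with limma or voom); with a library left out it has values without a test. The direction of each member's change was kept in all its alternatives except that of *EWSR1*, which reversed to -0.0095 with median scaling. Where each library was left out, log2 fold changes ran from 0.0039 to 0.024 for *EWSR1*, 0.017 to 0.067 for *TAF15*, 0.039 to 0.077 for *SFPQ*, 0.042 to 0.090 for *NONO*, -0.086 to -0.0098 for *PSPC1*, -0.17 to -0.054 for *NEAT1* and 0.091 to 0.35 for *MALAT1*. These are on log2(FPKM + 1), a scale that understates the change of *NEAT1*, which was -0.26 with voom and at least 10 reads. *NONO* had an unadjusted p under 0.05 after quantile normalization (adjusted p = 0.146, limma) and in 1 other alternative, TPM (adjusted p = 0.235, limma). *MALAT1* had an unadjusted p under 0.05 without the third control library (9.4e-04, adjusted p = 0.0697, limma). The number of all genes called was 279 (145 higher and 134 lower), 35 with no filter, 473 with a mean of at least 5 FPKM, 43 without trend, 927 with voom, 918 with voom and at least 10 reads, and 13 to 94 with a library left out. The split was 222 higher and 133 lower with TPM, and 82 higher and 139 lower with median scaling. The calls in the paraspeckle, RGG/RG and nuclear speckle lists each went to 0 with no filter and without trend, and with a library left out they came to 0 each time in the first 2 lists and to 0 or 1 in the last. Among neighbours the 1 call went to 0 with a pseudocount of 0.1, no filter, quantile normalization or no trend and to 3 with voom under either filter (with *EHBP1L1* and *PCNX3*), and it was 0 each time with a library left out. Fewer genes to adjust over or fewer libraries are part of how these alternatives are built, and otherwise the cause was not tested. Libraries that share a replicate number deviated from the group means with correlations of 0.02, 0.0631 and 0.101. The remaining pairs had -0.0751 to 0.0186, all lower. The main fit was unpaired because the study's methods name unpaired tests, and these correlations do not settle whether the numbers pair the samples. With the replicate block, 204 genes and 0 of the 6 members over the filter were called (*MALAT1* adjusted p = 0.262, limma). The block gave 3496 genes with an unadjusted p under 0.05, against 2655 in the main fit. The SE of *MALAT1* was 0.084 with the block and 0.13 without it. *NEAT1* rested on the fewest reads of the members, at 185 to 334 reads per library. Counting alone would give it a coefficient of variation of 6.20%, against 12.3% among control and 19.8% among PRMT1 KD libraries.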
